A study of Mus musculus with 2 samples.

Results

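The genes followed were the cytosolic sensors of misplaced nucleic acid and the molecules next to them: Ifih1, Ddx58, Dhx58, Zbp1, Eif2ak2, Mavs, Aim2, Trex1 and STING, which the matrices list as Tmem173. They were chosen by name, with earlier results of these data known. They were 9 of the 32285 genes in the files, and 8 of the 9 had any UMI (unique molecular identifier, the mark of 1 captured RNA molecule). Single-cell RNA sequencing had been done on cells sorted as CD45+ from MC38 tumors, a mouse colon carcinoma grown in mice labelled WT, a name the study also gives to mice with a floxed Ythdf2 gene and no Cre. The Control library held cells of unirradiated tumors, and the IR library those of tumors given 20 Gy once, 4 days earlier. Each library pooled 4 tumors, so there was no replicate, no test was possible, and the IR dose cannot be told apart from anything else that differed between the libraries. The methods of the study put its mice at 8 to 10 weeks of age, both sexes included, without naming those of these libraries.

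Cells carry receptors for DNA and RNA that appear in the cytosol, where virus, dying cells or damaged nuclei can leave them. MDA5 (Ifih1) and RIG-I (Ddx58) bind double-stranded RNA, LGP2 (Dhx58) tunes them, and the mitochondrial adaptor MAVS carries their signal to the kinases that switch on type I interferon. STING (Tmem173) does the same for cytosolic DNA, Aim2 instead builds an inflammasome on DNA, and Trex1 is a nuclease that removes DNA. Zbp1 binds left-handed Z-form nucleic acid and can start necroptosis, while Eif2ak2 (PKR) halts translation when it binds double-stranded RNA. Several of these genes are themselves induced by interferon.

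Cells were sorted into 6 gates by marker genes, named monocyte, macrophage, DC (dendritic cell), T, NK and collagen. Levels are given as CPM, the UMIs of a gene as counts per 1000000 UMIs of all cells in a gate, with exact 95% Poisson intervals in parentheses, and a ratio is IR over Control. A ratio counts as called when it is at least 2-fold on at least 20 UMIs. All intervals cover counting error only, not differences between animals or libraries. Because reads came from the 3′ end, levels are compared within a gene and not between genes.

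The libraries held 4679 Control and 3410 IR cells after filtering, with 41533178 and 37842119 UMIs and a median of 7302 and 8268.5 UMIs per cell. The gates took 3590 and 2348 of them. The sample labels also name a narrower population, CD45+CD11b+Ly6Chi, which the T, NK and collagen gates go against. Among cells, 6 barcodes occurred in both libraries. The 66 Control and 64 IR cells of the collagen gate had almost no CD45 RNA (Ptprc, 3.0 and 4.87 CPM, against 550 and 551 CPM in the monocyte gate), so they go against the CD45+ label and are called here only by their collagen genes. The T gate was set apart by its T cell panel of 6 genes (4652 and 4315 CPM) and the NK gate by its panel of 6 (1475 and 1427 CPM). The macrophage gate held 1962 Control and 561 IR cells, the monocyte gate 743 and 925, the DC gate 196 and 218, the T gate 314 and 194 and the NK gate 309 and 386.

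In the monocyte and macrophage gates the levels of Ifih1, Ddx58, Dhx58, Zbp1 and Eif2ak2 were higher in the IR library, with ratio intervals above 1, and those of Mavs, Aim2 and Tmem173 were not. In the DC gate the same held without Eif2ak2. Of the 54 combinations of gene and gate, 46 had at least 20 UMIs. In 25 of them the interval of the ratio lay above 1, in 2 below 1, and in 19 it held 1. The 25 all belonged to Ifih1, Ddx58, Dhx58, Zbp1 and Eif2ak2. The members called higher numbered 3 in the monocyte gate, where 2.84% of all genes with at least 20 UMIs were called higher. They numbered 4 in the macrophage gate (3.73% of all genes), 4 in the DC gate (3.22%), 3 in the T gate (3.29%), 3 in the NK gate (2.99%) and 3 in the collagen gate (3.56%). Of the 4 in the DC gate 1 remained past 2-fold without the 6% of cells with most UMIs. One member, Mavs, was called lower in the DC gate, where 3.53% of all genes were called lower. No member was called lower in the monocyte gate (3.1% of all genes), the macrophage gate (5.64%), the T gate (2.64%), the NK gate (2.12%) or the collagen gate (2.82%). The median log2 ratio of the members with at least 20 UMIs was 0.91 in the monocyte and 1.06 in the macrophage gate, against −0.07 in both for all genes. It was 0.67 in the DC, 0.57 in the T, 0.44 in the NK and 0.92 in the collagen gate, with medians over all genes from −0.05 to 0.00.

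**Figure D1:**
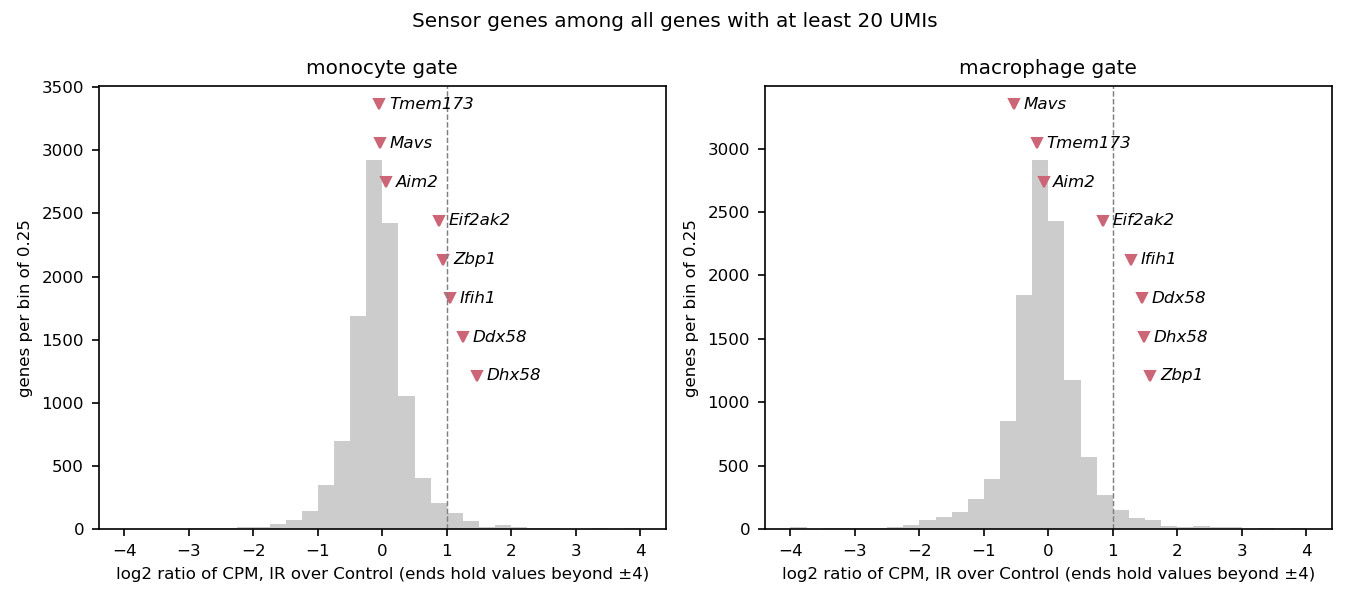
Histogram of the log2 ratio of CPM, IR over Control, for all genes with at least 20 UMIs in the monocyte gate (left) and the macrophage gate (right); the vertical axis counts genes per bin of 0.25 and triangles mark the members, with heights chosen for legibility. Dhx58 was farthest right in the monocyte gate at 1.47 and Zbp1 in the macrophage gate at 1.58, while Aim2 and Tmem173 lay near the peak of all genes in both gates. Mavs lay at −0.04 in the monocyte and −0.53 in the macrophage gate.

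The 3 members of the RIG-I family were described first. Ifih1 (ENSMUSG00000026896, chromosome 2, 62595798 to 62646255, minus strand, GRCm38) encodes MDA5, the receptor for long double-stranded RNA. Its level in the monocyte gate was 36.9 CPM in Control (31.7 to 42.7) and 76.5 CPM in IR (70.7 to 82.7), a ratio of 2.07 (1.75 to 2.46). In the macrophage gate it was 25.5 CPM (23.2 to 27.9) and 61.7 CPM (55.8 to 68.2), a ratio of 2.43 (2.11 to 2.78). In both gates the IR level was above the Control level with no overlap of the intervals. DC-gate cells had 25.03 and 56.7 CPM, a ratio of 2.27 (1.59 to 3.30), and collagen-gate cells 18.7 and 35.5 CPM, a ratio of 1.90 (1.19 to 3.12). The size of the collagen difference depended on how cells were weighted. Its log2 ratio of 0.92 was 0.70 without the 6% of cells with most UMIs. It was 0.11 as a mean over cells of each cell's own CPM. When every cell was thinned to 1000 UMIs it was 2.04, with 1 Control and 4 IR cells holding an Ifih1 UMI. Lymphocytes had little Ifih1. The T gate held 9 UMIs in Control and 27 in IR, or 5.66 and 18.8 CPM, a ratio of 3.32 with a wide interval (1.52 to 8.03). NK-gate cells had 6.90 and 10.9 CPM, and the interval of that ratio of 1.57 held 1 (0.88 to 2.93). In both libraries the monocyte gate had the highest level, above the macrophage gate without overlap, while the macrophage and DC gates overlapped.

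Ddx58 (ENSMUSG00000040296, chromosome 4, 40203773 to 40239828, minus strand) encodes RIG-I, which binds short RNA with a 5′ triphosphate. Monocyte-gate cells had 24.6 CPM in Control (20.4 to 29.4) and 58.4 CPM in IR (53.3 to 63.9), a ratio of 2.37 (1.94 to 2.93). Macrophage-gate cells had 17.5 CPM (15.6 to 19.5) and 47.8 CPM (42.6 to 53.5), a ratio of 2.74 (2.33 to 3.22). DC-gate cells had 12.8 and 31.4 CPM, a ratio of 2.45 (1.49 to 4.20), and collagen-gate cells 19.5 and 39.9 CPM, a ratio of 2.05 (1.30 to 3.32). The ratios in the lymphocyte gates were smaller. Ddx58 in NK-gate cells was 32.1 CPM in Control (25.4 to 40.0) and 37.4 CPM in IR (31.7 to 43.8), a ratio of 1.17 (0.88 to 1.55). T-gate cells had 26.4 and 39.0 CPM, a ratio of 1.48 (0.97 to 2.26), so neither ratio left 1 and a change up to the upper bounds could not be told from none. The interval of the NK ratio lay wholly below those of the monocyte and macrophage ratios, whereas the T interval overlapped that of the monocyte gate. This order did not hold when every cell was thinned to 1000 UMIs: the log2 ratio was then 1.26 in the NK and 1.83 in the T gate, against 1.11 in the monocyte and 0.93 in the macrophage gate, with 7 Control and 21 IR cells holding a Ddx58 UMI in the NK gate. In the collagen gate the thinned log2 ratio was 0.04, with 1 cell holding a Ddx58 UMI in each library. Without thinning, NK-gate cells were highest in Control, and monocyte-gate cells in IR, though neighbouring levels overlapped in each library.

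Dhx58 (ENSMUSG00000017830, chromosome 11, 100694884 to 100704271, minus strand) encodes LGP2, a relative of both receptors that lacks their signalling domains. It was the member called higher in all 6 gates. Monocyte-gate cells had 26.9 CPM in Control (22.5 to 31.9) and 74.6 CPM in IR (68.8 to 80.7), a ratio of 2.78 (2.30 to 3.38). Macrophage-gate cells had 21.9 CPM (19.8 to 24.2) and 60.9 CPM (55.0 to 67.3), a ratio of 2.79 (2.41 to 3.22). These nearly equal ratios came from different cells of the same libraries, so they are not independent repeats. The levels of the libraries did not overlap in either gate. The ratio was 2.04 (1.38 to 3.09) in the DC gate, from 21.4 to 43.6 CPM, and 2.11 (1.22 to 3.77) in the T gate, from 13.2 to 27.8 CPM. In NK-gate cells Dhx58 went from 10 UMIs in Control to 59 in IR, or 4.06 and 14.2 CPM, a ratio of 3.51 (1.78 to 7.69). The collagen gate had 10.5 CPM (5.74 to 17.6) and 49.2 CPM (40.0 to 59.7), a ratio of 4.68 (2.67 to 8.87). That size did not hold when every cell was thinned to 1000 UMIs. The collagen log2 ratio then fell from 2.23 to 0.04, with 2 Control and 2 IR cells holding a Dhx58 UMI. In the annotation, 4.31% of the exon bases of Dhx58 lie opposite the antisense gene Dhx58os.

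Zbp1 (ENSMUSG00000027514, chromosome 2, 173206612 to 173218923, minus strand) encodes the Z-nucleic acid sensor. It had the most UMIs of the 9 members, 3527 in all Control cells and 8604 in all IR cells. Monocyte-gate cells had 158 CPM in Control (147 to 169) and 304 CPM in IR (292 to 316), a ratio of 1.93 (1.78 to 2.09) that fell just short of 2-fold. With TMM or median-of-ratios scaling the log2 ratio was 1.02 or 1.03 and passed it, so 4 members were then called in that gate. Macrophage-gate cells had 78.7 CPM (74.6 to 82.9) and 236 CPM (224 to 248), a ratio of 2.996 (2.78 to 3.23). The intervals of these 2 ratios did not overlap: Control macrophage-gate cells began lower, and in IR their level was still below that of the monocyte gate. T-gate cells had 52.8 CPM (42.1 to 65.4) and 165 CPM (145 to 187), a ratio of 3.12 (2.43 to 4.06). NK-gate cells had 38.1 and 85.2 CPM, a ratio of 2.23 (1.77 to 2.83), and DC-gate cells 86.1 and 172 CPM, a ratio of 2.003 (1.65 to 2.44). Collagen-gate cells had 48.7 CPM (37.6 to 62.1) and 214 CPM (194 to 235), a ratio of 4.38 (3.37 to 5.78). Control and IR levels of Zbp1 were apart in all 6 gates.

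Because cells differed in depth, the share of cells with a Zbp1 UMI was also taken after each cell was thinned to 1000 UMIs, which left out no gated cell. In the monocyte gate the share was 15.6% in Control (13.1% to 18.4%, Clopper-Pearson) and 28.4% in IR (25.5% to 31.5%). In the macrophage gate it was 7.34% (6.22% to 8.58%) and 21.6% (18.2% to 25.2%), so the higher levels were spread over more cells. Unthinned shares were 45.2% and 76.3% in the monocyte gate and 38.4% and 72.9% in the macrophage gate. The share in the IR library was 12.9% of T-gate cells (8.52% to 18.4%) against 4.46% in Control (2.46% to 7.37%), and 9.84% of NK-gate cells (7.06% to 13.3%) against 3.56% (1.79% to 6.28%). No gate is known to lack Zbp1, so its background share could not be read from a cell type.

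Eif2ak2 (ENSMUSG00000024079, chromosome 17, 78852564 to 78882573, minus strand) encodes PKR, the kinase that stops translation on double-stranded RNA. Its ratios were smaller. Monocyte-gate cells had 27.7 CPM in Control (23.2 to 32.8) and 50.9 CPM in IR (46.2 to 56.0), a ratio of 1.84 (1.51 to 2.25). Macrophage-gate cells had 26.7 CPM (24.3 to 29.2) and 47.8 CPM (42.6 to 53.5), a ratio of 1.79 (1.55 to 2.07). NK-gate cells had 12.99 and 26.1 CPM, a ratio of 2.01 (1.34 to 3.08) that only just passed 2-fold. This was the only gate where Eif2ak2 was called, but the interval covered the monocyte, macrophage and collagen ratios. Collagen-gate cells had 27.0 and 50.1 CPM, a ratio of 1.86 (1.26 to 2.80). In the DC gate the ratio was 1.26 (0.83 to 1.93) and in the T gate 1.49 (0.92 to 2.43), and both intervals held 1.

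**Figure D2:**
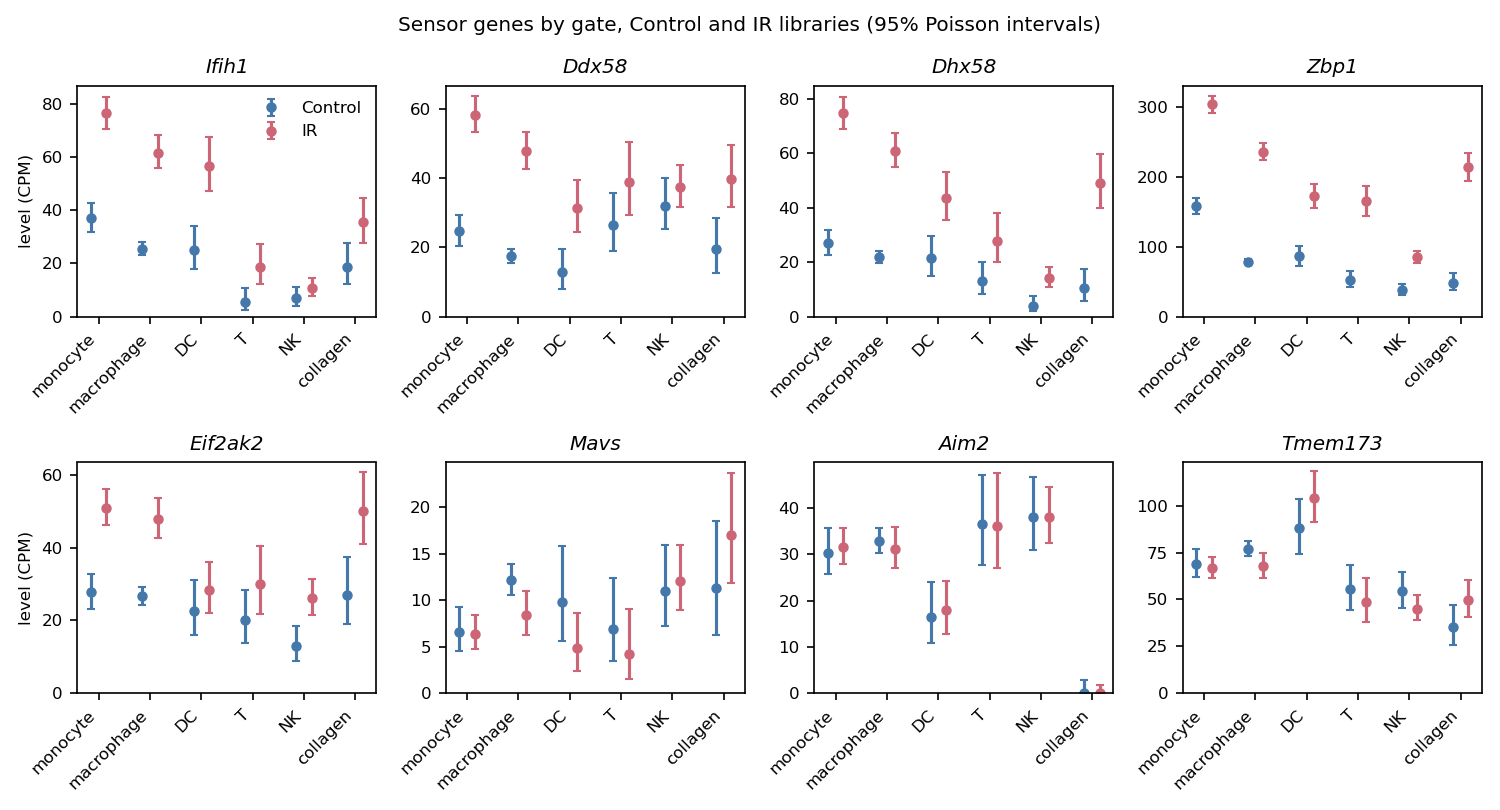
Level of the 8 detected members in CPM (vertical axes, from 0, with a scale of their own for each gene) in the 6 gates of the Control library (blue) and the IR library (red); points are gate sums and bars exact 95% Poisson intervals. Zbp1 in the monocyte gate went from 158 to 304 CPM, Ddx58 in the NK gate stayed within its interval at 32.1 and 37.4 CPM, and Aim2 was at 0 in the collagen gate of both libraries.

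No RefSeq promoter window was found for Dhx58 and Zbp1, both higher in IR, and Tmem173 was not looked up. For the other 6 of the 9 members RefSeq gave windows, 250 bases before to 50 after each start (GRCm38.p6, 7 windows in all). These were searched on both strands for the core of the interferon-stimulated response element, GAAANNGAAA (TTTCNNTTTC on the other strand), and for TTCNNNGAA, the site of STAT dimers, which reads the same on both strands. No copy of one motif in these windows overlapped a copy of the other. Of all 32851 windows, 3.44% held the first and 8.30% the second. Ifih1, Ddx58 and Eif2ak2 each held 1 copy of the response element, shown here in capitals because these are the 3 members with a window that were higher in IR:
Ifih1: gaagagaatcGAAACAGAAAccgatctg
Ddx58: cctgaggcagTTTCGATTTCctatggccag
Eif2ak2: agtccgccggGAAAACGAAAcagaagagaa
The sequences are printed in the direction of transcription. The Ifih1 stretch is chr2:62646206-62646233, that of Ddx58 chr4:40239804-40239833 and that of Eif2ak2 chr17:78882535-78882564, all on the minus strand. The first letter of the motif lies 32, 2 and 18 bases after the annotated start, so all 3 copies lie in the first bases of the transcript. Eif2ak2 also held a copy of the STAT site, 178 bases before its start, in a window that reads:
Eif2ak2 STAT site: ctgcagagctTTCCCAGAAtggaagccag
That stretch is chr17:78882732-78882760. The windows of Mavs, Aim2 and Trex1 held neither motif. A match says only that these letters are present, and no factor was measured.

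Mavs (ENSMUSG00000037523, chromosome 2, 131234063 to 131248025, plus strand) encodes the adaptor that both RNA receptors need. It had few UMIs and did not follow the receptors in the monocyte, macrophage and DC gates. Monocyte-gate cells had 6.56 CPM in Control (4.49 to 9.26) and 6.40 CPM in IR (4.79 to 8.37), a ratio of 0.98 (0.62 to 1.56). Macrophage-gate cells had 12.1 CPM (10.6 to 13.9) and 8.39 CPM (6.28 to 10.97), a ratio of 0.69 (0.50 to 0.94). The interval of that ratio was below 1, although the intervals of the 2 levels overlapped. In the DC gate Mavs had 16 UMIs in Control and 11 in IR, a ratio of 0.49 (0.21 to 1.13) whose interval held 1, so its call as lower rests on few molecules. The ratios in the NK and collagen gates were 1.10 (0.68 to 1.83) and 1.51 (0.81 to 2.98), and the T gate had 17 UMIs in all.

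Tmem173 encodes STING, the adaptor through which cytosolic DNA leads to interferon. Its level in monocyte-gate cells was 68.9 CPM in Control (61.7 to 76.7) and 66.8 CPM in IR (61.3 to 72.6), a ratio of 0.97 (0.84 to 1.11). In macrophage-gate cells it was 77.0 CPM (73.0 to 81.2) and 67.9 CPM (61.6 to 74.6), a ratio of 0.88 (0.79 to 0.98). T-gate and NK-gate cells had ratios of 0.88 (0.63 to 1.22) and 0.83 (0.66 to 1.04). DC-gate cells had the highest level of any gate in IR, 104 CPM (91.5 to 118), against 87.9 CPM in Control (74.1 to 103), a ratio of 1.19 (0.96 to 1.47). Collagen-gate cells had 35.2 and 49.6 CPM, a ratio of 1.41 (0.99 to 2.03). No gate reached 2-fold, and the intervals of all 6 ratios but that of the collagen gate lay below 1.5.

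Aim2 (ENSMUSG00000037860, chromosome 1, 173350879 to 173466040, plus strand) encodes the DNA sensor of an inflammasome. Its levels were nearly the same in both libraries. Monocyte-gate cells had 30.3 CPM in Control (25.7 to 35.6) and 31.6 CPM in IR (27.9 to 35.7), a ratio of 1.04 (0.85 to 1.28). Macrophage-gate cells had 32.8 and 31.2 CPM, a ratio of 0.95 (0.80 to 1.12). NK-gate cells had 38.1 CPM in both libraries, a ratio of 0.9995 (0.77 to 1.30), and T-gate cells 36.5 and 36.2 CPM, a ratio of 0.99 (0.67 to 1.47). DC-gate cells had less, 16.5 and 17.9 CPM, below the NK, T, monocyte and macrophage gates in each library without overlap, and collagen-gate cells had no Aim2 UMI in either library. In the monocyte and macrophage gates the ratios of the RNA receptors lay outside these intervals.

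Trex1 (ENSMUSG00000049734, chromosome 9, 109057933 to 109059734, minus strand), the nuclease that degrades DNA in the cytosol, had 0 UMIs in every cell and in the empty droplets of both libraries. In GENCODE vM21, a neighbouring release of the annotation, all 1147 exon bases of Trex1 (100%) also belong to exons of Atrip on the same strand, and Atrip had 225 UMIs in Control and 218 in IR cells. Reads from these bases cannot be given to 1 of the 2 genes alone, so the 0 of Trex1 does not measure its expression.

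**Figure D3:**
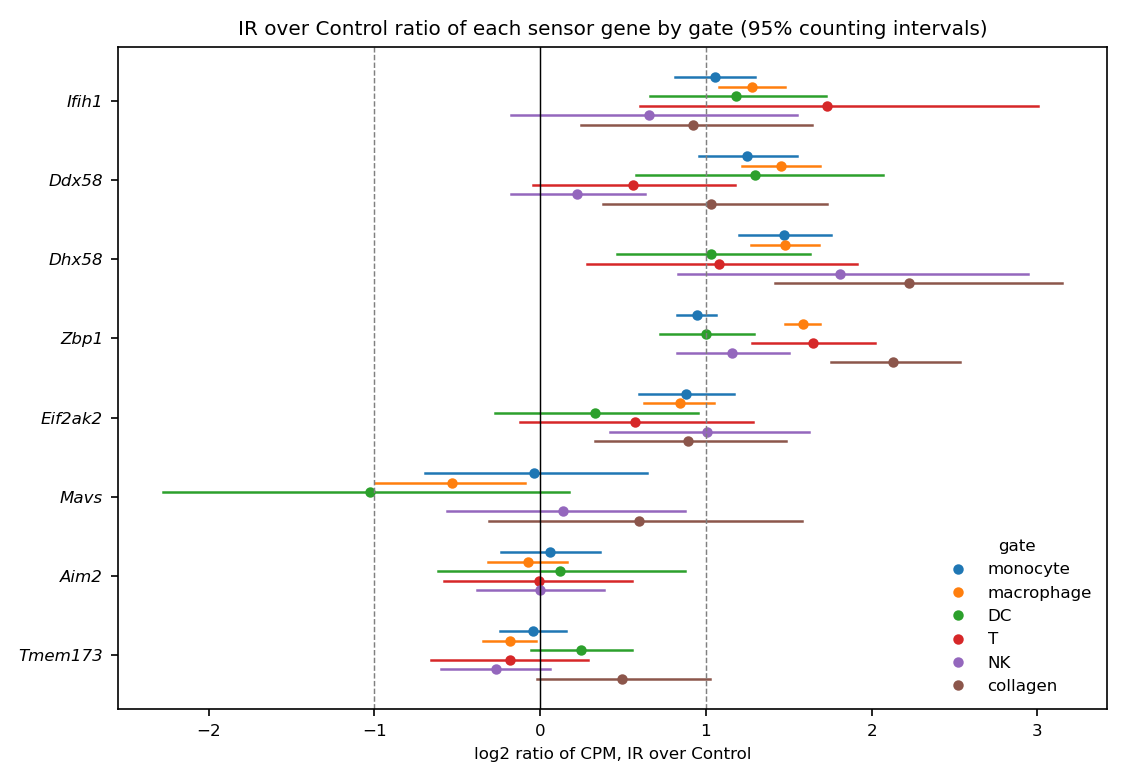
Log2 ratio of CPM, IR over Control, of each detected member (rows) in each gate (colours) where the gene had at least 20 UMIs; lines are exact 95% counting intervals, the solid vertical line marks no difference and dashed lines 2-fold. All points of Dhx58 lay beyond 1, from 1.03 in the DC gate to 2.23 in the collagen gate, while those of Aim2 lay between −0.07 and 0.12.

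Marker levels moved between the libraries too, and their part in these ratios was not tested. The monocyte and macrophage gates had less of their own markers in IR. The 5 monocyte markers in the monocyte gate were at 2639 CPM in Control and 1725 CPM in IR. The C1q genes in the macrophage gate were at 7790 and 5300 CPM. Markers of other cells moved as well. In monocyte-gate cells the 3 C1q genes of macrophages were at 320 and 127 CPM, Control first, and the 8 neutrophil markers at 155 and 340 CPM, with S100a9 at 2.46 and 23.9 CPM. In macrophage-gate cells the neutrophil markers were 121 and 361 CPM, the 5 monocyte markers 697 and 648 CPM, and Ly6c2, a monocyte gene that interferon also raises, 68.3 and 669 CPM. Ly6c2 in monocyte-gate cells was at 781 and 1548 CPM. In T-gate cells S100a9 was at 0 in Control and 52.9 CPM in IR. Retnlg, a defining marker of neutrophils, had 0 UMIs in Control and 14 in IR monocyte-gate cells, and 12 and 5 in macrophage-gate cells (0.67 and 0.79 CPM). Isg15, a gene strongly induced by interferon, was higher in IR in every gate, at 159 and 946 CPM in the monocyte and 87.0 and 885 CPM in the collagen gate.

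Free RNA was gauged from droplets with 10 to 100 UMIs. It was estimated as 0.33% to 5.89% of a gate's UMIs, except in the T gate, where it was 4.25% in Control and 15.8% in IR. Free RNA could account for 33.2% of the Ifih1 UMIs in IR T-gate cells and 16.9% in Control, and for 23.0% and 8.61% of the Zbp1 UMIs. In the monocyte gate it could account for at most 2.16% of the UMIs of any of the 5 higher members in Control and 2.32% in IR.

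DC-gate cells were divided further, a step chosen after the data had been seen, by whether Ccr7 and Fscn1, Cd209a, or Xcr1 and Clec9a had the most UMIs. Cells led by Ccr7 and Fscn1 (138 Control and 160 IR cells) had higher receptors in IR. Their Ifih1 level was 21.3 CPM in Control (13.7 to 31.7) and 67.0 CPM in IR (55.2 to 80.5), a ratio of 3.14 (2.01 to 5.11). Dhx58 had 12.4 and 43.3 CPM, a ratio of 3.48 (1.95 to 6.68), and Zbp1 63.1 and 170 CPM, a ratio of 2.69 (2.07 to 3.54). Cells led by Cd209a (42 and 55 cells) differed from this in Zbp1 and Ifih1. Their Zbp1 level was 173 CPM in Control (131 to 224) and 186 CPM in IR (152 to 225), a ratio of 1.08 (0.77 to 1.51), and their Ifih1 level 45.4 and 28.0 CPM, a ratio of 0.62 (0.29 to 1.34). For both genes the ratio intervals of the 2 kinds of DC were apart. In Control the Cd209a cells had more Zbp1 than the Ccr7 and Fscn1 cells, and in IR the 2 levels overlapped. Cells led by Xcr1 and Clec9a were too few, 15 and 3.

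**Figure D4:**
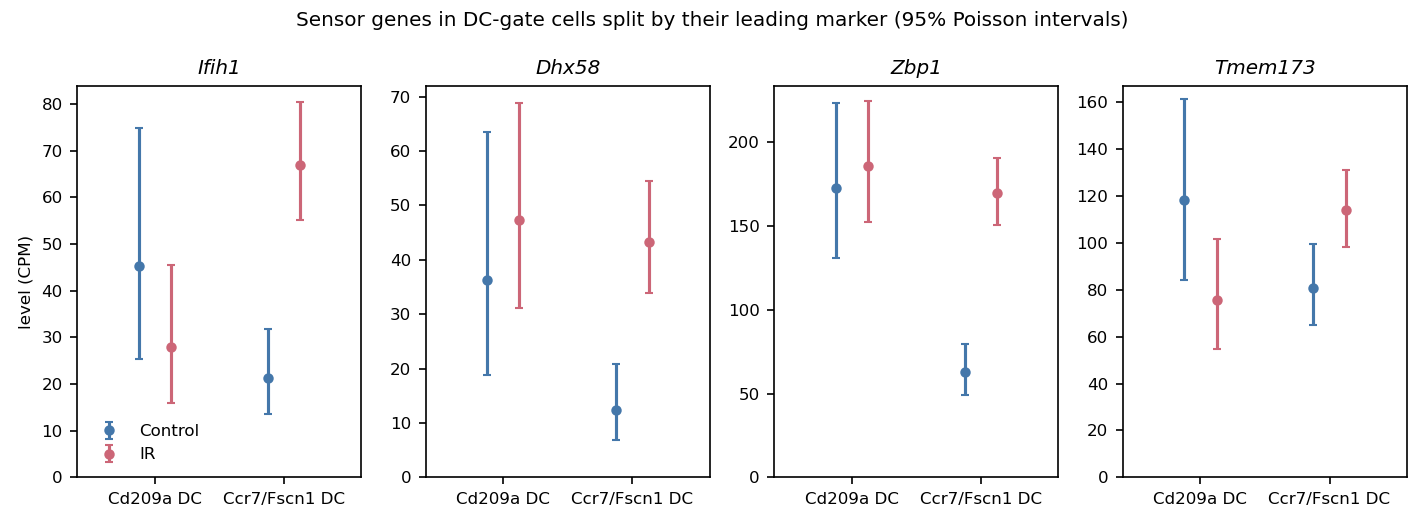
Level in CPM (vertical axes from 0) of Ifih1, Dhx58, Zbp1 and Tmem173 in DC-gate cells led by Cd209a and by Ccr7 and Fscn1, in Control (blue) and IR (red), with exact 95% Poisson intervals. Zbp1 was 173 and 186 CPM in the Cd209a cells and 63.1 and 170 CPM in the Ccr7 and Fscn1 cells.

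The rest of the pathway was taken as 62 genes grouped by role, whose median ratio was smaller than that of the members in every gate. In the monocyte gate 47 of them had at least 20 UMIs, of which 4 were called higher and 0 lower, with a median log2 ratio of 0.11. All genes called there came to 2.84% higher and 3.1% lower. In the macrophage gate 1 of 46 was called higher and 1 lower (3.73% and 5.64% of all genes), in the DC gate 2 of 42 higher (3.22%), in the T gate 3 higher and 3 lower of 44 (3.29% and 2.64%). In the NK gate 2 of 44 were called lower (2.12%), and in the collagen gate 2 higher and 2 lower of 41 (3.56% and 2.82%). Most of the calls on the RNA side came from Ddx60, a helicase that interferon induces. Ddx60 had 6.97 CPM in Control (4.83 to 9.74) and 28.9 CPM in IR (25.3 to 32.8) in the monocyte gate, a ratio of 4.14 (2.88 to 6.12). In macrophage-gate cells it had 8.50 and 27.2 CPM, a ratio of 3.20 (2.56 to 4.01). Among the 8 kinases and adaptors, Ikbke, which phosphorylates interferon regulatory factors, was called in the monocyte gate at 14.8 and 29.8 CPM, a ratio of 2.02 (1.55 to 2.66). Of the 13 genes on the DNA side none was called higher in any gate, a count of 0 beside the 2.84% to 3.73% of all genes called higher. Smaller differences were present. Samhd1, which depletes nucleotides, had levels apart in all 6 gates, with ratios from 1.22 (1.18 to 1.27) in the monocyte to 1.63 (1.39 to 1.91) in the collagen gate. Cgas, the sensor that makes the STING ligand, had a ratio of 1.46 (1.07 to 2.01) in the monocyte and 0.98 (0.78 to 1.23) in the macrophage gate. Enpp1, which breaks down the cGAS product, was lower in the macrophage gate at 11.4 and 4.59 CPM, a ratio of 0.40 (0.26 to 0.60). Enpp1 was also called lower in the T gate, 0.42 (0.13 to 1.12) on 22 UMIs, and in the NK gate, 0.42 (0.19 to 0.87) on 34 UMIs. Of the 5 effectors of Zbp1 and the 5 of Eif2ak2, none was called in the monocyte or macrophage gate, nor was any of the 3 effectors of Aim2. Some lay close to 2-fold. Mlkl, which executes necroptosis, had a ratio of 1.99 (1.53 to 2.62) in the monocyte and 1.73 (1.40 to 2.13) in the macrophage gate, and the stress factor Ddit3 1.90 (1.63 to 2.22) in the macrophage gate. In other gates Mlkl was called higher in the T gate, 2.95 (1.10 to 9.22) on 22 UMIs, Casp1 in the T gate, 2.10 (1.19 to 3.82), and Ddit3 in the collagen gate, 3.48 (2.45 to 5.06), while Fadd was called lower in the collagen gate. These genes, with Samhd1 and Cgas, were picked out after their values had been seen.

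The interferons at the end of the pathway were almost absent. Ifnb1 had 6 UMIs in 3 Control cells and 46 in 12 IR cells. Of the 46, 35 came from 1 monocyte-gate cell, so the ratio of 5.89 in that gate (2.13 to 22.7) rests on 1 cell, and its interval, which treats UMIs as independent, is too narrow. Of the other 15 interferon genes none had more than 3 UMIs in either library.

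Across the 12 levels of the 6 gates in both libraries, on the log2 scale of CPM plus 10, the members resembled one another to different degrees. These correlations are descriptions over 12 points that share libraries and depth. Dhx58 and Zbp1 had the highest Pearson correlation of any pair, 0.96, followed by Ifih1 with Dhx58 at 0.91 and Dhx58 with Eif2ak2 at 0.91. Ddx58 was less close to Ifih1, at 0.38. Among 5494 genes with at least 20 UMIs in every gate of at least 1 library, the 3 most like Zbp1 were Irf7 (0.97), Dhx58 (0.96) and Parp14 (0.96). Those most like Ifih1 were Ifi211 (0.97), Oasl2 (0.96) and Znfx1 (0.95), and those most like Ddx58 Mndal (0.92), Samd9l (0.90) and Nt5c3 (0.87). Dhx58 was followed by Stat2 (0.95) and Parp14 (0.95) after Zbp1, and Eif2ak2 by Rtp4 (0.96), Cmpk2 (0.95) and Tor3a (0.95). The genes nearest to Tmem173 were Gosr2 (0.96), Clptm1 (0.95) and Apaf1 (0.95), those nearest to Aim2 were Emb, Cd52 and Cotl1 (each 0.98 or 0.97), and those nearest to Mavs were Tbcd (0.87), Cgrrf1 (0.85) and Bop1 (0.84). Aim2 was at 0 in the collagen gate of both libraries, and these points weigh heavily in its correlations.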

How the data were processed

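Unfiltered matrices of raw UMI counts were deposited, made by the authors from 10x Chromium 3′ v3.1 libraries aligned to mm10. The submitters' processing notes name Cell Ranger 6.0.1, while the matrix headers name Cell Ranger 4. Barcodes with at least 1000 UMIs, 200 genes and at most 25% mitochondrial UMIs were kept. A cell entered a gate with at least 3 UMIs of that lineage's marker panel and a minimum rate per 10000 UMIs, set after the panels' distributions were seen (T 3, NK 3, collagen 5, DC 5, monocyte or macrophage 20). Monocyte and macrophage gates were parted by whether Ccr2, Chil3, Hp, F13a1 and Vcan or the 3 C1q genes had more UMIs. Cells passing 2 gates, 735 Control and 630 IR, were left out in place of a doublet caller. DC-gate cells with macrophage RNA stayed unless C1q UMIs exceeded DC UMIs. UMIs were summed per gate and library (Python 3.11.15, scipy 1.17.1). Intervals of ratios are exact conditional ones. The call rule and intervals were run on simulated Poisson counts, the model that the intervals assume. The changed genes there had more UMIs and larger changes than the rule asks. Spread between cells or libraries was not simulated, so the run cannot show whether the intervals are too narrow. TMM scaling used edgeR 4.0.16. Members and lists were chosen with earlier results of these data known. All members are named, with pathway genes called in the monocyte gate whose intervals were apart, Ddx60 and Enpp1 of the macrophage gate being named in addition, and the 3 most similar genes per member.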

Additional observations from a re-analysis of the deposited data

Results flagged for a closer look

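Droplets with 10 to 100 UMIs, which lie outside the comparisons of gated cells, held more RNA of 4 sensors in the IR library than in Control. Zbp1 was at 107 CPM in Control (97.4 to 117) and 240.0 CPM in IR (223 to 258). Ifih1 was at 22.4 and 39.4 CPM, Ddx58 at 19.9 and 40.7 CPM and Dhx58 at 15.3 and 34.6 CPM, each without overlap of the intervals. Eif2ak2 was at 16.9 and 23.3 CPM with overlap, and Mavs, Aim2 and Tmem173 were not higher.

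Neutrophil-gate cells, 26 in Control and 130 in IR, were too few in Control to be compared above. The Control cells held 172970 UMIs with a median of 1876, and 37823 of these came from 1 cell. In IR the largest cell had 5673 UMIs. The Control levels thus lean on few cells, which their intervals do not cover. Zbp1 in this gate was at 150 CPM in Control (98.2 to 220) and 487 CPM in IR (414 to 570). Ifih1 had 1 UMI in Control and 42 in IR, or 5.78 CPM (0.15 to 32.2) and 130 CPM (94.0 to 176).

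Tmem173 had ratios on opposite sides of 1 in 2 sets of cells, with ratio intervals on either side of 1. The ratio was 0.88 in the macrophage gate and 1.41 (1.09 to 1.83) in the DC-gate cells led by Ccr7 and Fscn1. In both sets the Control and IR levels overlapped. The macrophage interval ended at a log2 ratio of −0.02, and median-of-ratios scaling raises the log2 ratios of that gate by 0.04. With 1 library per group these differences were not tested.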

How the results depend on the processing

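No paired analysis was possible because each group had 1 library. The number of members called per gate was recomputed under other settings, of which 1, the mean over cells, was chosen after seeing the data. Of these 90 counts 78 stayed within 1.5 times. The others were these. A pseudocount of 10 CPM left 1 member called in the monocyte, 0 in the DC, 1 in the T and 0 in the NK gate. A 1.5-fold rule gave 5 in the monocyte and 6 in the collagen gate. Thinning to 1000 UMIs gave 2 in the macrophage, 1 in the DC, 1 in the T and 0 in the collagen gate, since few UMIs then remained. Removing the 6% of cells with most UMIs gave 1 in the DC gate, as did the mean over cells. Of 595 single log2 ratios recomputed, 35 moved beyond the main interval, 24 of them by thinning, and 29 changed sign, 7 of them by thinning. Thinning reversed Ddx58 in the DC gate (−0.15) and Mavs in the macrophage gate (0.22), and turned Ifih1 in the NK (−0.32) and Tmem173 in the DC (−0.68) and T gate (0.80). The other sign changes were of Mavs, Aim2 and Tmem173. Zbp1 and Dhx58 kept a log2 ratio above 0 in each gate and setting that gave a value, from 0.76 to 2.36 and from 0.04 to 2.33. Thinned Dhx58 in the NK gate gave none, since Control then had 0 UMIs. TMM and median-of-ratios scaling moved all ratios of a gate by at most 0.08.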
